A study of Mus musculus with 21 samples.

Results

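The cell cycle genes described here were fixed by name, 20 genes of DNA replication and its onset and 24 genes of mitosis, 44 of the genes that a mouse expression array can report. Of these, 43 had a probe set named for them alone among the 18193 genes tested, and Ccnb1 was not analysed here. Where a gene had several probe sets, the brightest on average over the 21 arrays stood for it, and all 43 members lay above the background signal of 41.8 on every array. No measured value entered the choice of the 44 names in the rule itself, although they were listed with earlier results of these data known.

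The arrays held RNA from nephron progenitors, the Six2-expressing cells that cap the branching ureteric bud, sorted by GFP from kidneys of Six2GFPcre BAC transgenic mouse embryos of a mixed background at E16.5. The BAC places GFP and Cre under Six2 control, so a cell that has just lost Six2 may still carry GFP. There were 3 arrays in each of 7 groups. The first held aggregates given BIO for 24 h and then DMSO for another 24 h, the second aggregates kept in BIO for 48 h, the third aggregates in BIO for 24 h and the fourth aggregates in DMSO for 24 h. Dispersed cells in BIO for 24 h, dispersed cells in DMSO for 24 h and freshly sorted cells made up the other groups. BIO, an indirubin that inhibits GSK3 and thereby stabilises beta-catenin, was used at 4 µM against an equal volume of DMSO, and all cultures held 40000 cells in medium with 10% serum. The labels call the arrays of a group biological replicates without saying which animals they came from, so the p-values measure the spread between these arrays. No group had 48 h in DMSO alone, so the second day in culture and what was added on that day can be told apart only between the pair of 48 h groups.

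A dividing cell loads the MCM helicase onto its origins in G1, copies its DNA in S phase and then turns on the mitotic kinases, kinetochore and spindle proteins in G2 and M. Genes of the first kind are switched on mainly by E2F factors. Those of the second kind are held down by the DREAM complex through CHR elements and turned on later by MuvB with B-Myb and FoxM1. In the fetal kidney the cap progenitors divide, and Wnt/beta-catenin signalling both renews them and starts their conversion to epithelium. In RNA from a whole culture, a lower signal may come from fewer cells in a phase or from less RNA per cell, and these cannot be told apart.

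The promoters of the members are shown because the 2 classes differ there in letters that the choice of genes did not use. RefSeq windows of 300 bases (250 before and 50 after the start, GRCm38.p6) were matched for 36 of the 44 members, 17 of replication and 19 of mitosis, Ccnb1 included. The start that RefSeq's table uses is the edge of the annotated gene for 11 of the 17 and 12 of the 19, and lies inside the gene for the others, by 466 bases at most. The CHR letters, TTTGAA or TTCGAA on either strand, stood in 3 of 17 replication promoters and 14 of 19 mitotic promoters, against 19.4% of all 27025 promoters. The E2F letters, TTTCCCGC, TTTCGCGC, TTTGCCGC or TTTGGCGC on either strand, stood in 7 of 17 replication promoters and 1 of 19 mitotic promoters, against 2.32% of all promoters. CCAAT was in 10 of 17 and 16 of 19, against 37.9%, and CHR together with CCAAT in 2 of 17 and 14 of 19, against 7.7%. Each motif was counted without regard to the others, and TTCGAA reads the same on both strands. A match says only that the letters are there.

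For the 5 mitotic members with a CHR match within 80 bases before the start used, the bases before the gene are printed 5′ to 3′ on the gene's strand. The printed bases number 80 each and 70 for Top2a, with the CHR letters of either strand in capitals. They lie at chr4:118437344-118437423 (Cdc20, minus strand), chr10:69352913-69352992 (Cdk1, minus), chr19:37376302-37376381 (Kif11, plus), chr11:99024200-99024269 (Top2a, minus) and chr2:164769849-164769928 (Ube2c, plus). In these stretches Cdk1 holds 2 matches and the others 1 each. Matches farther before the start, as in Bub1b, Ccnb2, Mki67 and again Top2a, are not printed.
Cdc20: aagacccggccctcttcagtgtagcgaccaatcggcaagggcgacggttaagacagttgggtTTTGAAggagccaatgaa
Cdk1: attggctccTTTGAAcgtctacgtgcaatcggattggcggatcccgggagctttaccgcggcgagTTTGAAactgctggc
Kif11: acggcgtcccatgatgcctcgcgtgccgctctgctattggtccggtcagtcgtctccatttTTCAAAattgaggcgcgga
Top2a: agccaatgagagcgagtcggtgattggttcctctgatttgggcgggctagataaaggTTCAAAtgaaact
Ube2c: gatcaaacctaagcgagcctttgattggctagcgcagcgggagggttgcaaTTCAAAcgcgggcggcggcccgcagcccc

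For 2 replication members with the E2F letters before the gene, the bases are printed in the same way with the E2F letters of either strand in capitals, 129 for Mcm5 (chr8:75109339-75109467, plus strand) and 170 for Mcm6 (chr1:128359706-128359875, minus). Mcm5 holds 2 matches, on opposite strands and overlapping, and Mcm6 holds 3, of which a pair overlaps in the same way. Cdc6, Mcm7 and Pola1 also held matches before the start used, but there their windows lie inside the annotated gene and are not printed.
Mcm5: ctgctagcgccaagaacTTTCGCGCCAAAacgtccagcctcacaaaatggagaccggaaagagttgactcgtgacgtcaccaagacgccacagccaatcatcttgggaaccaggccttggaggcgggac
Mcm6: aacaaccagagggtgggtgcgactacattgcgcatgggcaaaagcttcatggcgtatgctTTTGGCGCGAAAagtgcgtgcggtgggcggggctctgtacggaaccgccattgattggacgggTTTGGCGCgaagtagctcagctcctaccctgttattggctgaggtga

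The labels were checked with Axin2, a feedback target of beta-catenin, and Six2, which marks the progenitor. Axin2 gave normalized signals of 520, 677 and 698 where BIO had been replaced by DMSO, 5059, 4223 and 4165 after 48 h in BIO, 3733, 3798 and 3056 in BIO aggregates at 24 h and 323, 356 and 375 in DMSO aggregates. In dispersed cells it gave 4790, 4749 and 4864 with BIO, against 219, 352 and 208 with DMSO. Every BIO array therefore lay above every array without BIO. Six2 was 8565 to 9270 in fresh cells, the highest of all groups, and 407 to 541 after 48 h in BIO, the lowest. Across the series, 76.0% to 79.6% of genes lay above background on an array. An array's mean correlation with its own group, over genes brighter than the median gene only, ranged between 0.976 and 0.992. The control probe set at the 3′ end of beta-actin stood apart in BIO aggregates at 24 h, with a mean of 3706 ± 1487 (SD, n = 3), against at least 6344 on each array of the other groups.

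The replication and the mitotic members parted most between the 2 groups of the second day. As a description, the mean log2 signal of the 20 replication members minus that of the 23 measured mitotic members was 0.13 ± 0.12 where BIO had been replaced by DMSO and 1.19 ± 0.19 where BIO was kept for 48 h (SD, n = 3 each). It was 0.38 ± 0.23 in BIO aggregates and 0.66 ± 0.03 in DMSO aggregates at 24 h. Dispersed cells had 0.52 ± 0.05 with BIO and 0.68 ± 0.04 with DMSO, and fresh cells had 0.57 ± 0.03. Probe sets differ in brightness, so the size of this difference has no meaning of its own and only its shift between groups can be read. The lowest value among the arrays kept in BIO was 0.98, and the highest on any other array was 0.70, so the groups did not overlap. Within the BIO aggregates at 24 h, replicate 3 had 0.64, beside 0.32 and 0.18 for replicates 1 and 2.

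**Figure D1:**
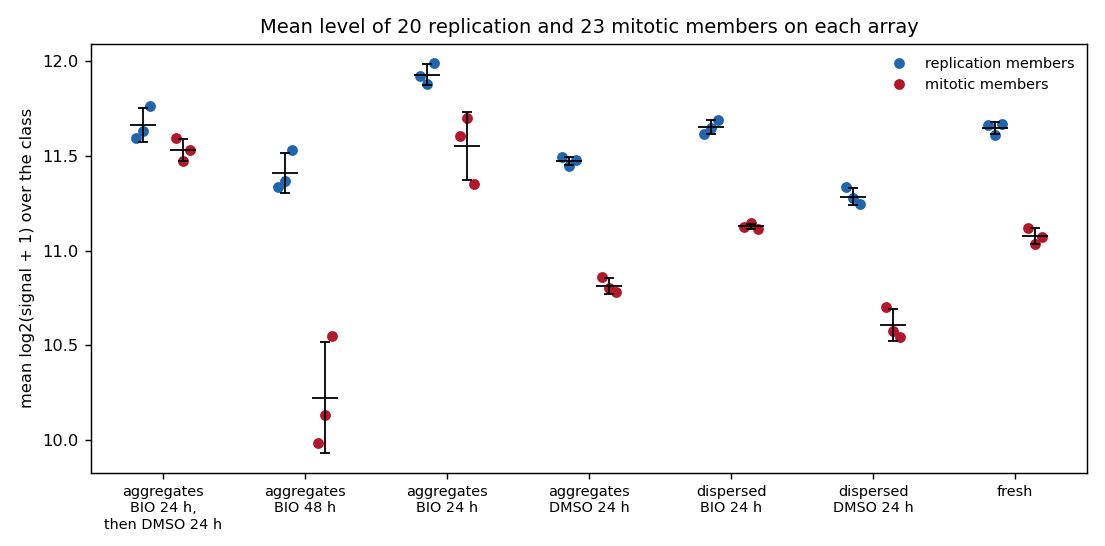
Mean log2(signal + 1) over the 20 replication members (blue) and the 23 mitotic members (red) on each array, by group, with points for arrays and bars for the mean and SD of 3 arrays. The mitotic mean of the 3 arrays kept in BIO for 48 h lies between 9.98 and 10.55, and that of the other arrays between 10.54 and 11.70, while the replication mean of these arrays lies between 11.34 and 11.53.

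Among single members, 21 of the 23 mitotic genes had their lowest group mean after 48 h in BIO, and Foxm1 with its flat signal was among these 21. Of the 20 replication genes, 6 were lowest there and 10 were lowest in dispersed cells with DMSO. The highest mean lay in BIO aggregates at 24 h for 14 replication and 10 mitotic genes, and in aggregates moved to DMSO for 0 replication and 10 mitotic genes. The distance between a member's highest and lowest group mean had a median of 0.74 for replication and 1.49 for mitotic members on the log2 scale. Replication members were therefore the steadier class by this description, and they also had the brighter probe sets, with a median signal of 4236 for replication and 2271 for mitotic members.

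**Figure D2:**
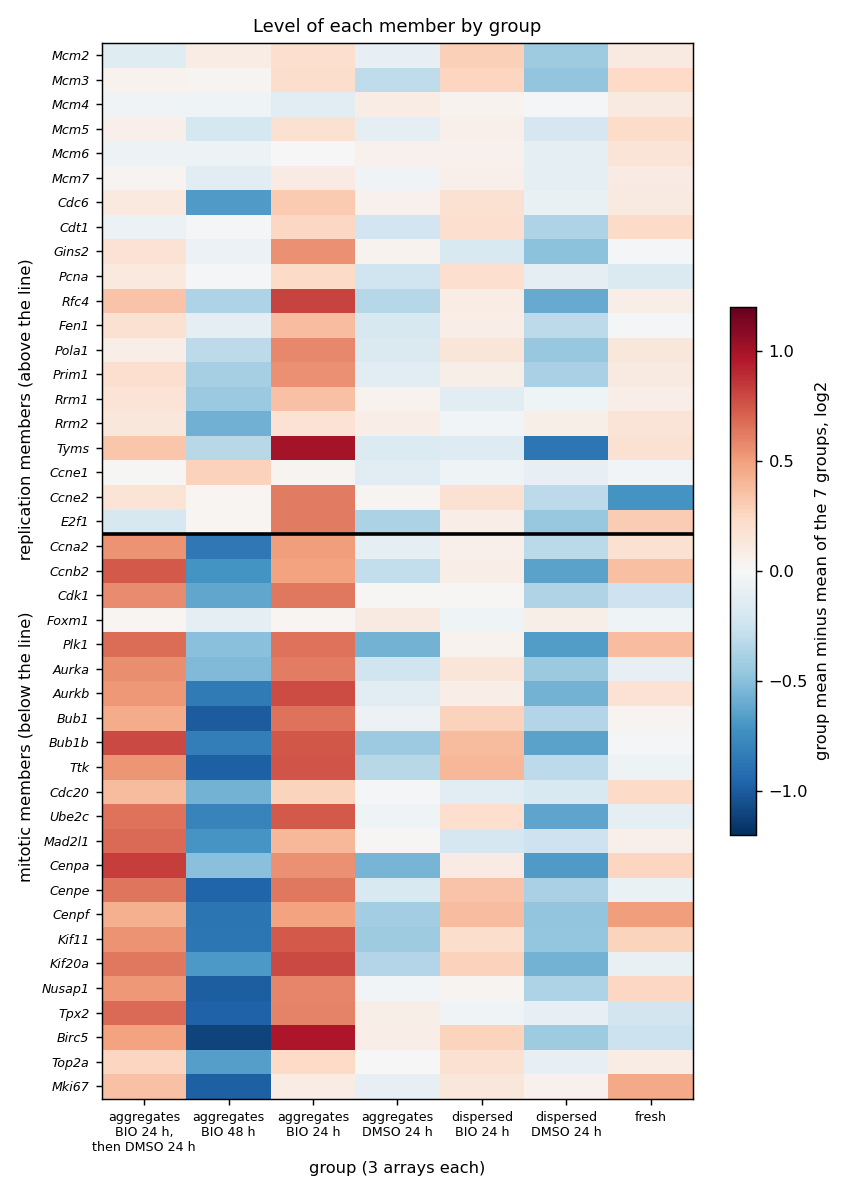
Mean log2 level of each of the 43 members in each group of 3 arrays, minus the mean of that member over the 7 groups (colour, log2), with replication members above the line and mitotic members below it. The column for aggregates kept in BIO for 48 h is blue for most mitotic members, and it is close to white for Mcm2, Mcm3, Mcm4 and Mcm6.

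Aggregates in which BIO was replaced by DMSO after the first day, set against those kept in BIO, ask how removing BIO changed the RNA of these genes during the second day. Of the 23 mitotic members 22 were higher with BIO removed and 0 lower, at a median log2 change of 1.39, and of the 20 replication members 8 were higher and 0 lower, at a median of 0.21. Over all 18193 genes 20.4% passed the threshold (adjusted p under 0.05 by limma with Benjamini-Hochberg adjustment), 9.29% upward, and the median was -0.06. Each of the 22 mitotic changes, the smallest being Top2a at 0.92, exceeded the change of every replication member, of which Cdc6 had the largest. Leaving out any 1 of the 6 arrays kept the mitotic count at 22, whereas the replication count was 5 without replicate 3 of the aggregates moved to DMSO and also 5 without replicate 1 of those kept in BIO.

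Tpx2, which targets Aurora A to the spindle (chr2:152847964-152895321), gave signals of 4317, 3510 and 3575 with BIO removed, against 876, 1416 and 1407 with BIO kept. The change was 3.14-fold, or 1.65 ± 0.14 on the log2 scale (SE of the limma fit, adjusted p = 3.38e-07). Every array with BIO removed was higher than any array kept in BIO. Bub1b, the BubR1 kinase-like protein of the spindle checkpoint, gave 4756, 4142 and 3984 with BIO removed, against 1134, 1397 and 1692 with BIO kept (1.62 ± 0.12, adjusted p = 9.9e-08). Cenpe, a kinesin of the kinetochore, gave 3930, 3348 and 2963, against 959, 1028 and 1413 (1.60 ± 0.15, adjusted p = 9.49e-07). For both genes the groups were again separate. Separate groups were a condition for giving array values of called members, and over all genes 31.9% had them in this comparison.

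By role, the 6 mitotic kinases and kinase-like genes all rose with BIO removed, among them Plk1 at 1.17, Aurka at 1.09 and Ttk (the Mps1 kinase of the checkpoint) at 1.50. The cyclin-dependent kinase Cdk1 and its partners Ccna2 and Ccnb2 rose by 1.19, 1.39 and 1.46. Cdc20 and Ube2c, an activator and the E2 enzyme of the anaphase-promoting complex, rose by 0.95 and 1.45, and the checkpoint protein Mad2l1 by 1.39. At the centromere, Cenpa and Cenpf rose by 1.33 and 1.31. The spindle and midzone genes Kif11, Kif20a, Nusap1 and Birc5 rose by between 1.33 and 1.60. Mki67, which coats mitotic chromosomes and is widely used as a proliferation marker, rose by 1.33. The mitotic member that did not pass was Foxm1 at 0.14 (adjusted p = 0.677).

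Among the replication members, the nucleotide supply genes were the group in which all passed. Rrm2, the regulated subunit of ribonucleotide reductase, gave 11534, 11384 and 11362 with BIO removed, against 6778, 6099 and 8246 with BIO kept (0.71 ± 0.09, adjusted p = 2.14e-05), and Rrm1 and Tyms rose by 0.61 and 0.67. The call of Tyms was lost without replicate 3 of the aggregates moved to DMSO and without replicate 1 or 2 of those kept in BIO. Cdc6, a loader of the MCM helicase (chr11:98907709-98923942), gave 1275, 1453 and 1812 with BIO removed, against 676, 865 and 1089 with BIO kept (0.80 ± 0.15, adjusted p = 0.000973). Rfc4, a subunit of the clamp loader, gave 2161, 1996 and 2204, against 1299, 1139 and 1454 (0.71 ± 0.10, adjusted p = 8.85e-05). None of these 3 genes had overlapping groups, as their choice required.

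By its chosen probe sets the MCM helicase moved little. Their mean signals ran from 3555 for Mcm2 to 9767 for Mcm7, and the part of this brightness in the small changes was not tested. Mcm5 rose by 0.28, and the other 5 subunits did not pass, between -0.23 for Mcm2 and 0.17 for Mcm7. Mcm4 read 7835, 8393 and 8693 with BIO removed, against 8233, 8292 and 8112 with BIO kept, and these groups overlapped. Of the other fork genes, Fen1 and Prim1 rose by 0.28 and 0.60, while Pcna at 0.14, Gins2 at 0.25 and Pola1 at 0.39 did not pass. None of the G1/S regulators passed, with Ccne1 at -0.27, E2f1 at -0.22 and Ccne2 at 0.14.

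**Figure D3:**
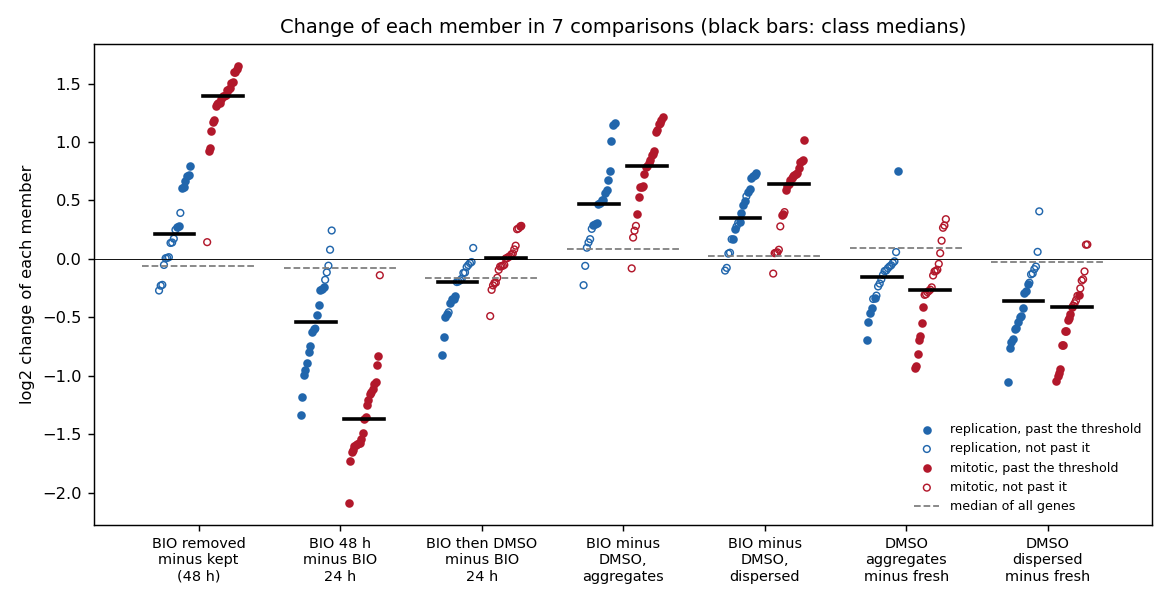
log2 change of each member in 7 comparisons, the group named first minus the group named second, for replication (blue) and mitotic members (red), with filled points past the threshold, black bars at class medians and dashed grey lines at the median of all genes. In the comparison of BIO removed with BIO kept the mitotic points lie apart from the replication points except for Foxm1 at 0.14.

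The class difference on removal was also seen in probe sets that had not been chosen. Among other probe sets above background, 17 of 21 from mitotic genes were higher with BIO removed and 0 lower (median 1.37), and 5 of 22 from replication genes were higher and 0 lower (median 0.29). Split at a mean signal of 2465, the brighter and the dimmer replication members had medians of 0.16 and 0.32, and the brighter and the dimmer mitotic members 1.33 and 1.42. Within a gene the brightest probe set gave the smaller change in several cases: 0.71 for Rrm2 against 1.06 and 1.27 for its other probe sets, and 0.95 for Cdc20 against 1.36 and 1.82. For Foxm1 the chosen probe set gave 0.14, and of the others, all dimmer, those of mean signal 183 and 62.6 gave 0.87 (adjusted p = 0.0425) and 2.14 (adjusted p = 0.0297), while that of 12.5 lies below background.

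Other cell cycle genes, counted by list, ran the same way on removal. Of 30 further genes of the mitotic apparatus 27 were higher and 0 lower (median 1.02), led by Racgap1 of the midzone at 2.07 ± 0.32 (adjusted p = 0.000183) and the spindle protein Hmmr at 1.75 ± 0.17 (adjusted p = 9.36e-07). Of 12 genes of the G2/M switch 8 were higher and 0 lower, among them the Cdk1 phosphatase Cdc25c at 1.79 ± 0.20 (adjusted p = 8.05e-06) and its opponent, the kinase Pkmyt1, at 1.18. Of 19 other replication fork genes 7 were higher and 0 lower (median 0.24), led by Tk1 at 1.07 and Rfc5 at 0.87. Of 14 genes of origin licensing and firing 5 were higher and 1 lower, with Gmnn, the Cdt1 inhibitor geminin, at 1.18 and Orc1 at -0.65. Of 14 E2F and MuvB-Myb factors 6 were higher and 0 lower, with the atypical E2Fs E2f8 and E2f7 at 1.90 and 0.74.

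The regulators of G1 did not share a direction. Of 9 cyclins, kinases and pocket proteins of G1/S, 4 were higher with BIO removed and 2 lower. Ccnd1 (cyclin D1) gave 3510, 4070 and 4986 with BIO removed, against 1777, 1205 and 1540 with BIO kept (1.48 ± 0.21, adjusted p = 7.59e-05), and its partner Cdk6 rose by 1.43 ± 0.15. Ccnd2 (cyclin D2) went the other way, with 3020, 2966 and 3236 against 5932, 5494 and 5036 (-0.83 ± 0.15, adjusted p = 0.000779), and Rb1 fell by 0.80. Of 7 CDK inhibitors 2 were higher, Cdkn2c and Cdkn2d at 1.14 and 1.03, and 1 was lower. That was Cdkn1a, the p53 target p21, with 5102, 4647 and 3464 with BIO removed, against 10002, 9441 and 9160 with BIO kept (-1.13 ± 0.11, adjusted p = 1.87e-06).

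Markers of interstitial stroma moved with the same comparison. All 7 lay above background in every group, and their summed signal was 10246 to 11643 with BIO removed, against 2039 to 2627 with BIO kept. It was 3693 to 3964 in BIO aggregates and 13567 to 14355 in DMSO aggregates at 24 h, 3320 to 3545 with BIO and 12552 to 13484 with DMSO in dispersed cells, and 12778 to 13965 in fresh cells. The 7 measured progenitor markers summed to 9063 to 9834 with BIO removed, against 5968 to 7261 with BIO kept. Singly they did not move together, as 3 passed as higher and 1 as lower with BIO removed, at a median of 0.21. Markers of endothelium, leukocytes, erythroid cells and ureteric bud summed to at most 1646 on any array. The part of these markers in the cell cycle changes was not tested.

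Aggregates kept in BIO for 48 h were set against aggregates in BIO for 24 h. In this comparison a second day of BIO and a second day in culture cannot be told apart. All mitotic members but Foxm1 fell, 22 of 23, at a median of -1.36, and 14 of 20 replication members fell, at a median of -0.54. No member rose. Over all genes 20.8% passed, 8.05% upward and 12.8% downward, at a median of -0.08. The comparison shares the 48 h BIO arrays with the one above, and leaving out any 1 array gave 11 to 14 replication and 22 mitotic members. The replication count was less steady elsewhere, at 5 with the Gapdh ratio as a covariate, 7 when only the arrays compared were fitted and 9 with the beta-actin control as a covariate, where the mitotic counts were 20, 18 and 19. The ratio of the 3′ to the 5′ Gapdh control, a sign of RNA length, was 8.14 ± 1.74 at 48 h and 13.4 ± 1.9 at 24 h, and the beta-actin control 8300 ± 2612 and 3706 ± 1487 (SD, n = 3 each).

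Birc5 (survivin, of the chromosomal passenger complex, chr11:117849237-117855743) fell most, with 376, 337 and 439 at 48 h, against 1877, 1761 and 1292 at 24 h (4.24-fold lower, -2.08 ± 0.21, adjusted p = 3.04e-06). Ttk gave 379, 338 and 474 at 48 h, against 1435, 1313 and 1182 at 24 h (-1.73 ± 0.13, adjusted p = 2e-07). Bub1, a kinase of the outer kinetochore, gave 887, 1226 and 1824, against 4139, 3926 and 3761 (-1.65 ± 0.17, adjusted p = 4.44e-06). In each of the 3 genes the 48 h arrays were all lower, as their choice required, and 33.9% of all genes had separate groups here. Replicate 3 of the 48 h group had the highest mean over the mitotic members in its group, 10.55 on the log2 scale, beside 9.98 and 10.13 for replicates 1 and 2.

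Tyms, thymidylate synthase (chr5:30038546-30073645), led the replication members, with 171, 193 and 243 at 48 h, against 455, 479 and 598 at 24 h (-1.33 ± 0.18, adjusted p = 6.2e-05). Its signal was the dimmest of all members, a mean of 253, and its other 3 probe sets lay below background. Rfc4 gave 1299, 1139 and 1454 at 48 h, against 2914, 2883 and 3002 at 24 h (-1.18 ± 0.10), and Cdc6 gave 676, 865 and 1089, against 1724, 1521 and 1930 (-0.996 ± 0.15). All 3 genes were lower on every 48 h array, again a condition of their choice. The 6 fork genes all fell, between -1.18 and -0.25, whereas 4 of the 8 licensing genes did. Those that did not were Mcm2 at -0.11, Mcm3 at -0.18, Mcm4 at 0.08 and Mcm6 at -0.06, and Ccne1 had 0.24.

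In the wider lists, 27 of 30 genes of the mitotic apparatus and 9 of 12 of the G2/M switch were lower at 48 h, led by separase (Espl1) at -2.14 and by Gtse1 at -2.06. The fork list fell too, 17 of 19, with Pole, the catalytic subunit of the leading-strand polymerase, at -1.50. So did 10 of 14 E2F and MuvB-Myb factors, with E2f8 at -2.28, and 10 of 14 licensing and firing genes. Cdkn1c, the CDK inhibitor p57, went against them with 2319, 1941 and 1877 at 48 h, against 318, 319 and 365 at 24 h (2.61 ± 0.22, adjusted p = 6.09e-07), as did Ccnd2 at 2.09 ± 0.15.

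Aggregates moved to DMSO for the second day were also compared with the same 24 h arrays. In this comparison 8 of 20 replication members were lower and 0 higher (median -0.19), while 1 of 23 mitotic members was higher and 0 lower (median 0.00). Over all genes 24.9% passed, 8.66% upward and 16.2% downward, at a median of -0.16, so the replication median was close to that of all genes. Without 1 array, replicate 3 of the BIO aggregates at 24 h or replicate 1 or 2 of the aggregates moved to DMSO, the replication count was 4, and without replicate 1 of the BIO aggregates at 24 h it was 5. The mitotic count was 0 without replicate 1 of either group. The beta-actin control was 12328 ± 458 after the DMSO day and 3706 ± 1487 in BIO at 24 h (SD, n = 3 each), and with it as a covariate 0 replication and 0 mitotic members passed. With the Gapdh ratio as a covariate the counts were 2 and 0, and 2 and 0 again when only the arrays compared were fitted, whereas median centring gave 15 replication members, all lower, and 1 mitotic member, which was lower. The deposited scaling gave 4 replication members. Of other probe sets above background, 5 of 21 from mitotic genes were higher and 1 lower. From replication genes 4 of 22 were lower and 1 higher.

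E2f1, the activator of S phase genes, gave 371, 334 and 357 after the DMSO day, against 643, 607 and 622 in BIO at 24 h (-0.82 ± 0.24, adjusted p = 0.02). Tyms gave 278, 296 and 394, against 455, 479 and 598 (-0.67 ± 0.18, adjusted p = 0.0133). Pola1, the catalytic subunit of DNA polymerase alpha, gave 1746, 2378 and 2264, against 3389, 2894 and 2684 (-0.49 ± 0.17, adjusted p = 0.0415). In all 3 the DMSO day was lower on every array, as their choice required, where 39.4% of all genes had separate groups. Each of these calls was lost when 1 of 2 to 4 arrays was left out, and Pola1 turned to 0.19 with the beta-actin covariate. Mad2l1 gave 5179, 4790 and 4788 after the DMSO day, against 4091, 4372 and 3691 (0.28 ± 0.09, adjusted p = 0.0278), a call lost without replicate 1 or 3 of the 24 h group or replicate 1 of the other. Plk1 at 0.02, Top2a at 0.02, Ccna2 at 0.04 and Bub1b at 0.05 are examples of mitotic members that did not pass.

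Several G1 regulators moved more than any member in this comparison. Ccnd1 gave 3510, 4070 and 4986 after the DMSO day, against 732, 1206 and 1057 in BIO at 24 h (2.08 ± 0.21, adjusted p = 2.57e-06), Cdk6 rose by 1.64 ± 0.15 and Ccnd2 by 1.26. Cdkn1c rose by 2.36 ± 0.22 and Cdkn1a fell by 1.07. In the licensing list 4 of 14 were lower, with Orc5 and Orc1 at -0.83 and -0.82, and in the fork list 9 of 19 were lower and 1 higher, with Pole at -0.89.

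BIO aggregates against DMSO aggregates at 24 h ask how BIO changed the RNA of these genes on the first day. With BIO, 14 of 20 replication members and 19 of 23 mitotic members were higher and none lower, at medians of 0.47 and 0.80. Over all genes 30% passed, 17.5% upward, at a median of 0.09. Both classes took part, and only 3 mitotic members, Plk1, Bub1b and Kif11, lay above every replication member.

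Plk1, the polo-like kinase of mitotic entry, gave 1151, 1266 and 867 with BIO, against 462, 448 and 487 with DMSO (2.32-fold, 1.21 ± 0.19, adjusted p = 0.000102). Bub1b gave 3946, 4336 and 4161, against 2087, 1760 and 1651 (1.18 ± 0.12, adjusted p = 2e-06). Kif11, the kinesin that pushes spindle poles apart, gave 1942, 2071 and 1633, against 755, 827 and 935 (1.16 ± 0.17, adjusted p = 5.6e-05). All 3 were higher on each BIO array, as their choice required, and 41.4% of all genes had separate groups here. All 6 mitotic kinases, all 3 centromere genes and all 5 spindle genes rose, while Top2a at 0.24, Mki67 at 0.18, Cdc20 at 0.28 and Foxm1 at -0.08 did not pass.

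Of the replication members, Tyms gave 455, 479 and 598 with BIO, against 228, 209 and 242 with DMSO (1.16 ± 0.18, adjusted p = 0.000121). Rfc4 gave 2914, 2883 and 3002, against 1536, 1283 and 1175 (1.15 ± 0.10, adjusted p = 3.61e-07). E2f1 gave 643, 607 and 622, against 327, 291 and 315 (1.004 ± 0.24, adjusted p = 0.00419). Each BIO array exceeded each DMSO array in these genes, again a condition of their choice. The fork genes rose in full, 6 of 6, and the licensing genes in part, 4 of 8, with Mcm3 at 0.51 and Cdt1, a helicase loader, at 0.48, and with Mcm4 at -0.22, Mcm6 at -0.06 and Mcm7 at 0.14 not passing. In the wider lists 16 of 19 fork genes, 10 of 14 licensing and firing genes and 17 of 30 genes of the mitotic apparatus were higher and none lower, among them the histone chaperone subunit Chaf1b at 1.17 and the condensin subunit Ncapg at 1.44.

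The 3′ beta-actin control was lower on these BIO arrays, 2669 to 5410 against 7700 to 12586 on the DMSO arrays. With that control as a covariate the counts were 4 of 20 replication and 3 of 23 mitotic members, at medians of 0.42 and 0.36. The Gapdh ratio was 13.4 ± 1.9 with BIO and 14.2 ± 1.0 with DMSO (SD, n = 3 each). Among other probe sets above background, 15 of 22 from replication genes and 8 of 21 from mitotic genes were higher, at medians of 0.46 and 0.38, so the larger mitotic median of the chosen probe sets was not seen there. Progenitor markers moved with this comparison, 5 of 7 lower with BIO and 2 higher (median -1.38). Six2 gave 1906, 1675 and 1804 with BIO, against 4056, 4830 and 5163 with DMSO, and 6 of 7 stroma markers were lower. The part of these markers was not tested.

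In dispersed cells BIO raised 12 of 20 replication and 16 of 23 mitotic members and lowered none, at medians of 0.35 and 0.64, where 28.7% of all genes passed, 15.3% upward, at a median of 0.02. The mitotic count was 10 without replicate 2 of the dispersed DMSO cells. The 3′ beta-actin control was 8628 to 9219 with BIO and 11993 to 12313 with DMSO, and with it as a covariate 10 of 23 mitotic members passed. Of the other probe sets above background, 14 of 22 from replication genes were higher, and of 21 from mitotic genes 5 were higher and 1 lower. Progenitor markers again moved, 5 of 7 lower and 2 higher (median -1.56), as did stroma markers, 5 of 7 lower and 1 higher, and their part was not tested.

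Bub1b led here with 3081, 3249 and 3286 with BIO, against 1625, 1664 and 1469 with DMSO (2.02-fold, 1.02 ± 0.12, adjusted p = 9.76e-06). Cenpf, a kinetochore protein, gave 4749, 4772 and 4665, against 2864, 2544 and 2512 (0.84 ± 0.16), and Kif20a, a kinesin of cytokinesis, gave 1348, 1341 and 1307, against 729, 722 and 785 (0.84 ± 0.15). These mitotic genes were separate between the groups, as their choice required, where 46.8% of all genes were. Of the replication members, Mcm3 gave 5277, 5204 and 5202 with BIO, against 3105, 3109 and 3204 with DMSO (0.74 ± 0.10, adjusted p = 2.11e-05), Mcm2 rose by 0.71 ± 0.09 and Tyms, at 201 to 246 with BIO against 114 to 155 with DMSO, by 0.72 ± 0.18. Tpx2 at 0.05, Mad2l1 at 0.05, Rrm1 at -0.08 and Rrm2 at -0.10 did not pass.

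Whether BIO acted differently in the 2 formats was tested as an interaction, the BIO effect in aggregates minus that in dispersed cells. By limma 0 of 20 replication and 0 of 23 mitotic members passed, where 1.57% of all genes did, 0.726% with a positive value. At an unadjusted p under 0.05 the counts were 5 replication members (2 positive and 3 negative) and 2 mitotic members (both positive). The share of all genes at that unadjusted cut is not given here. With a trended and robust prior in limma 1 replication member passed. The largest mitotic value was Plk1 at 0.50 ± 0.26 (adjusted p = 0.487) and the largest replication value E2f1 at 0.47 ± 0.34 (adjusted p = 0.648).

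Among the 105 other cell cycle genes measured, 3 passed in this test, beside 1.57% of all genes. Cdkn1c had an interaction of -1.65 ± 0.32 (adjusted p = 0.0131), with 318, 319 and 365 with BIO against 1833, 1961 and 1191 with DMSO in aggregates, and 1134, 1111 and 982 with BIO against 1772, 1622 and 1612 with DMSO in dispersed cells. Ccnd2 had -1.53 ± 0.22 (adjusted p = 0.0015), with BIO at 1056 to 1425 against DMSO at 742 to 1123 in aggregates and BIO at 4297 to 4682 against DMSO at 1070 to 1238 in dispersed cells. BIO thus raised Ccnd2 3.78-fold in dispersed cells, and its change in aggregates did not pass. Ccng2, an atypical cyclin linked to cell cycle exit, had 0.75 ± 0.18 (adjusted p = 0.0443), with BIO effects of -0.27 in aggregates and -1.02 in dispersed cells.

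Aggregation itself was compared within each treatment. In DMSO, 1 of 20 replication members and 0 of 23 mitotic members differed by limma between aggregates and dispersed cells. Over all genes 2.62% passed, 1.84% upward and 0.786% downward. At an unadjusted p under 0.05 the counts were 6 and 5, all higher in aggregates, but the share of all genes at that cut is not given here. The member past the adjusted threshold was Gins2 of the replicative helicase, with 1749, 1520 and 1372 in aggregates, against 1047, 1148 and 981 in dispersed cells (0.54 ± 0.12, adjusted p = 0.0255). Without replicate 1 or 3 of the dispersed cells, or replicate 1 or 2 of the aggregates, no member passed, and without replicate 2 of the dispersed cells 2 did. Ube2c, the mitotic member with the largest value, gave 2083, 1951 and 1815 in aggregates, against 1430, 1283 and 1214 in dispersed cells (0.58 ± 0.19, adjusted p = 0.111).

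In BIO, 6 of 20 replication and 12 of 23 mitotic members were higher in aggregates than in dispersed cells and none lower, at medians of 0.17 and 0.45. Over all genes 17.2% passed, 12.6% upward and 4.65% downward, at a median of 0.18, so the replication median was close to that of all genes. The mitotic count rested on single arrays. It was 3 without replicate 1 or 2 of the aggregates, 4 without replicate 1 or 2 of the dispersed cells and 5 without replicate 3 of the dispersed cells. It was 5 with the deposited scaling and 0 with the beta-actin control as a covariate. Other probe sets above background went both ways. Of 21 from mitotic genes 7 were higher and 4 lower, and of 22 from replication genes 6 were higher and 1 lower.

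Tyms gave 455, 479 and 598 in BIO aggregates, against 201, 238 and 246 in dispersed cells with BIO (1.15 ± 0.18, adjusted p = 0.000719), but the mean of all its probe sets, of which the others lay below background, turned this to -0.57. Gins2 gave 1974, 2081 and 2533, against 1208, 1328 and 1400 (0.74 ± 0.12), and Rfc4 2914, 2883 and 3002, against 1730, 1824 and 1786 (0.72 ± 0.10). These replication genes were higher on every aggregate array, as their choice required, and 40.3% of all genes had separate groups here. Of the mitotic members, Birc5 gave 1877, 1761 and 1292 in aggregates, against 981, 900 and 1109 in dispersed cells (0.71 ± 0.21, adjusted p = 0.0313). Aurkb, the kinase that works with Birc5, gave 2027, 2094 and 2118, against 1009, 1420 and 1441 (0.71 ± 0.21, adjusted p = 0.029), and Tpx2 3617, 3561 and 3551, against 2332, 2392 and 2165 (0.64 ± 0.14, adjusted p = 0.00664). The calls of Birc5 and Aurkb were each lost when 1 of 4 arrays was left out.

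After a day of culture without BIO, part of both classes was lower than in fresh cells. With the chosen probe sets, more members were called lower in dispersed cells than in aggregates. Compared directly in DMSO, however, 1 of 20 replication and 0 of 23 mitotic members differed between the formats. In dispersed DMSO cells 13 of 20 replication and 13 of 23 mitotic members were lower and none higher, at medians of -0.36 and -0.41, where 33.2% of all genes passed, 18.3% downward, at a median of -0.03. In DMSO aggregates 5 replication members were lower and 1 higher, and 7 mitotic members were lower and 0 higher, at medians of -0.15 and -0.26, where 32.9% of all genes passed, 18.4% upward and 14.5% downward, at a median of 0.10. The share of members that passed in either direction was thus close to that of all genes. With median centring 2 replication members were lower and 1 higher there, at a median of 0.06 beside 0.17 for all genes. Both comparisons share the fresh arrays. Of 21 other mitotic probe sets above background, 6 were lower and 1 higher in dispersed cells, and 9 lower and 1 higher in aggregates. Of 22 from replication genes, 14 were lower and 0 higher in dispersed cells, and 11 lower and 1 higher in aggregates. The Gapdh ratio was 14.2 ± 1.0 in DMSO aggregates and 12.1 ± 0.5 in dispersed DMSO cells, against 9.50 ± 0.91 in fresh cells (SD, n = 3 each). With that ratio as a covariate 12 replication and 12 mitotic members were lower in dispersed cells, and 3 and 5 in aggregates.

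Plk1 gave 462, 448 and 487 in DMSO aggregates and 497, 389 and 416 in dispersed DMSO cells, against 872, 866 and 930 in fresh cells (-0.93 ± 0.19 and -1.04 ± 0.19, adjusted p = 0.00103 and 0.000356). Cenpf gave 2622, 2807 and 2811 in aggregates and 2864, 2544 and 2512 in dispersed cells, against 5308, 5310 and 4938 in fresh cells (-0.92 and -0.98). Cenpa, the centromeric histone, gave 1776, 1490 and 1389 in aggregates, against 2761, 2538 and 2857 in fresh cells (-0.81 ± 0.15). For these genes all cultured arrays were lower than all fresh ones, as their choice required. Over all genes 45.6% had separate groups for aggregates and 46.8% for dispersed cells. Ccnb2, a mitotic cyclin, gave 994, 1120 and 933 in dispersed cells, against 2155, 1920 and 2021 in fresh cells (-1.002 ± 0.15, adjusted p = 8.52e-05).

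Among replication members, Mcm3 gave 3131, 3728 and 3800 in DMSO aggregates and 3105, 3109 and 3204 in dispersed DMSO cells, against 5269, 5025 and 5142 in fresh cells (-0.54 ± 0.10 and -0.71 ± 0.10). E2f1 gave 327, 291 and 315 in aggregates and 410, 224 and 281 in dispersed cells, against 452, 469 and 596 in fresh cells (-0.69 ± 0.24 and -0.76 ± 0.24), but its call in aggregates was lost without 1 of 5 of the 6 arrays and in dispersed cells without 1 of 3. Tyms gave 155, 149 and 114 in dispersed cells, against 357, 240 and 275 in fresh cells (-1.05 ± 0.18, adjusted p = 0.000266). The cultured arrays were again lower throughout, a condition of the choice. Ccne2, the cyclin E2 that drives entry into S phase, was the exception with 1109, 1229 and 1169 in DMSO aggregates, against 653, 732 and 695 in fresh cells (0.75 ± 0.17, adjusted p = 0.00267).

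Around these members, 15 of 19 further fork genes were lower in dispersed DMSO cells than in fresh cells and 0 higher, and 10 of 19 were lower in DMSO aggregates. Tk1 had the largest fall in dispersed cells, at -1.33 ± 0.15. Cdkn1a gave 7504, 7076 and 7497 in DMSO aggregates and 7334, 8081 and 8112 in dispersed DMSO cells, against 1099, 1133 and 1124 in fresh cells, changes of 2.72 ± 0.11 and 2.81 ± 0.11 (adjusted p = 7.29e-11 and 3.07e-11). The INK4 inhibitor Cdkn2b lay below background in fresh cells and was at least 3.52-fold higher in aggregates and at least 3.95-fold higher in dispersed cells. Ccnd1 was lower, at -1.74 ± 0.21 in aggregates and -1.56 ± 0.21 in dispersed cells, and so was E2f2 at -1.92 and -2.07. The summed progenitor markers were 10479 to 12215 in aggregates and 10579 to 11822 in dispersed cells, against 26118 to 27743 in fresh cells, and their part was not tested.

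Cultures with BIO were compared with fresh cells in the same way. In dispersed cells with BIO 2 of 20 replication members were higher than in fresh cells and 0 lower, and 2 of 23 mitotic members were higher and 2 lower, at medians of -0.03 and 0.00, where 25.9% of all genes passed. In BIO aggregates 8 replication members were higher and 1 lower, and 13 mitotic members were higher and 0 lower, at medians of 0.24 and 0.47, where 33.7% of all genes passed, 21.9% upward, at a median of 0.18. With the beta-actin control as a covariate the BIO aggregates had 3 replication and 0 mitotic members past the threshold. Other probe sets above background went both ways in BIO aggregates. Of 21 from mitotic genes 6 were higher and 4 lower, and of 22 from replication genes 7 were higher and 2 lower. The 4 mitotic calls in dispersed cells became 0 without replicate 2 of the fresh cells and 1 without replicate 3 of the fresh cells or any 1 of the dispersed BIO arrays. Progenitor markers were lower than in fresh cells in both, 7 of 7 in dispersed cells (median -1.87) and 6 of 7 in aggregates (median -2.30), and stroma markers in 6 of 7 and 7 of 7. Their part in these changes was not tested.

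Ccne2 gave 1763, 1408 and 2193 in BIO aggregates and 1080, 1398 and 1435 in dispersed cells with BIO, against 653, 732 and 695 in fresh cells (1.34 ± 0.17 and 0.90 ± 0.17). Birc5 gave 1877, 1761 and 1292 in BIO aggregates, against 980, 571 and 593 in fresh cells (1.23 ± 0.21, adjusted p = 0.000324). Kif20a gave 1884, 2250 and 1649, against 1061, 999 and 1037 (0.89 ± 0.15), and Cdk1 5049, 5381 and 3888, against 2676, 2508 and 2507 (0.88 ± 0.14). All BIO aggregates exceeded all fresh cells here, as the choice required, where 47.1% of all genes had separate groups. In dispersed cells with BIO, Pcna, the sliding clamp, gave 8464, 8000 and 8011, against 6386, 5947 and 6582 in fresh cells (0.37 ± 0.07, adjusted p = 0.0013). Ttk and Bub1b were higher by 0.46 and 0.40, and Cdc20 was lower, with 6210, 6563 and 6700, against 8510, 8008 and 8319 (-0.35 ± 0.12, adjusted p = 0.0375).

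**Figure D4:**
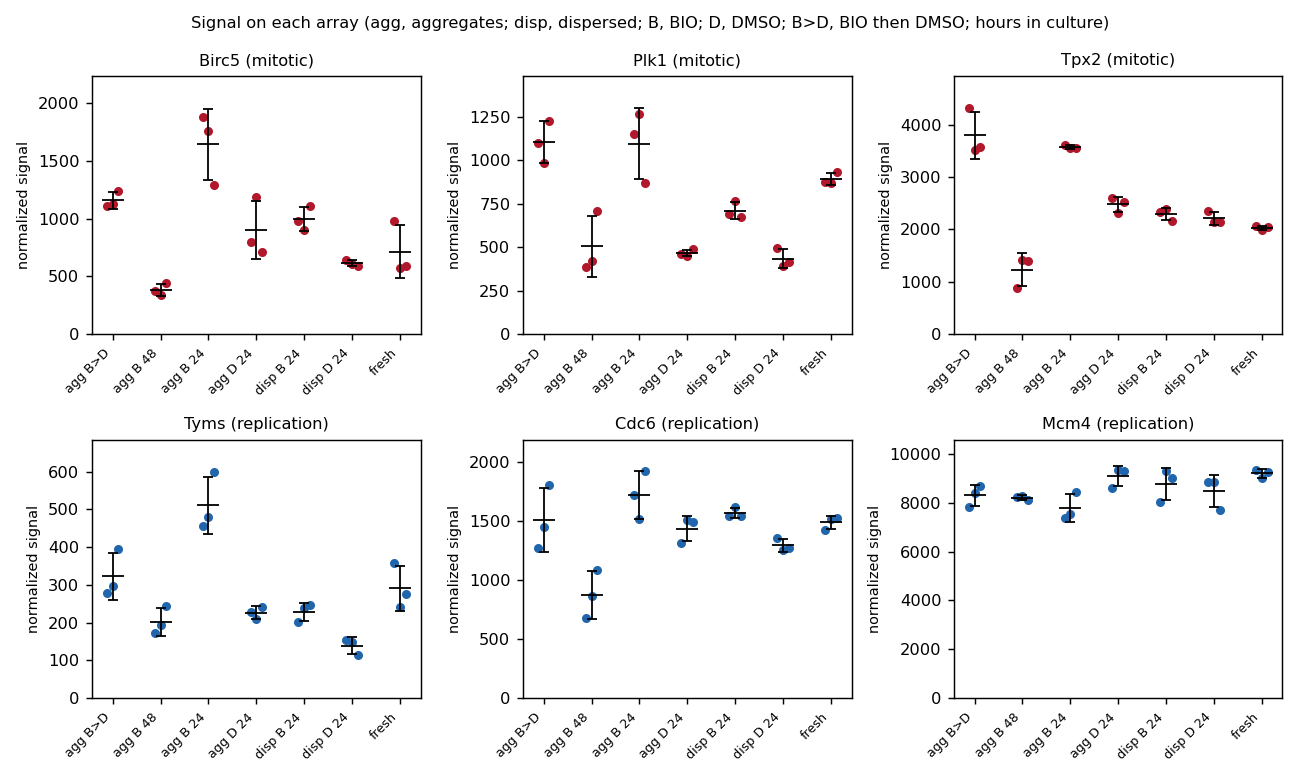
Normalized signal of 3 mitotic members (Birc5, Plk1, Tpx2) and 3 replication members (Tyms, Cdc6, Mcm4) on each array, by group, with bars for the mean and SD of 3 arrays and axes that start at 0. Birc5, Plk1 and Tpx2 are higher where BIO was replaced by DMSO than where it was kept for 48 h, while Mcm4 stays between 7362 and 9350 on all arrays.

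A few members differed from most of their class in the distance between groups or in the group where they were highest. Mcm4, Mcm6 and Mcm7 differed between their highest and lowest group by 0.24, 0.27 and 0.24 on the log2 scale, the smallest distances among replication members, at signals that were among the brightest. Foxm1, at 0.22, had the smallest distance among mitotic members and passed in no comparison with its chosen probe set. Ccne1 was highest after 48 h in BIO, at 2815, 2575 and 2230, against 2082, 2201 and 2126 at 24 h, a difference of 0.24 that did not pass. Mki67 was highest in fresh cells, at 7963, 8429 and 8153, and its changes with BIO at 24 h, 0.18 in aggregates and 0.08 in dispersed cells, did not pass.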

How the data were processed

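Expression was measured on 21 mouse arrays of 45101 probe sets, 3 per group, from RNA amplified in 2 rounds, per the labels' protocols. The deposited values are linear intensities between 0.1 and 18025.3 that the authors had already summarised per probe set, and the software behind them is not given in the sources used here. Arrays have no read depth, so their number limits the precision. From these intensities log2(value + 1) was taken and quantile normalized, probe sets with 1 gene symbol were kept (34945, of which 34741 were named through RefSeq), and the brightest per gene represented each of 18193 genes. Signals up to the level under which 95% of the values of 27 Bacillus control probe sets lay counted as background. limma 3.58.1 in R 4.3.3 fitted 1 mean per group over all 21 arrays, and every adjusted p is limma's with Benjamini-Hochberg adjustment over 18193 genes. The procedure was tested on simulated data.

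Members, gene lists and tests were chosen with earlier results of these data known. The text accounts for every member and gives array values for Axin2, Six2 and, per comparison and class, up to 3 members with the largest called change and separate groups, or the 1 with the largest change where none passed. Of each wider list up to 2 genes are named per comparison by size, or where they go against their list. Some others are named as examples, chosen after their values were seen. Same-numbered arrays did not deviate together (63 pairs, mean correlation -0.037, 10 over 0.1), so the numbers were not treated as pairs. Alternatives changed the scaling, the offset, the filter, the probe set rule, the arrays fitted, the prior and covariates, and left out each array in turn. Promoters came from RefSeq windows.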

Additional observations from a re-analysis of the deposited data

Results flagged for a closer look

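Among cell cycle genes outside the members, 3 had a BIO effect in aggregates that differed from that in dispersed cells by the test of the difference itself (limma, adjusted over 18193 genes, 3 arrays per group). The difference, aggregates minus dispersed cells on the log2 scale, was -1.65 for Cdkn1c (adjusted p = 0.0131), -1.53 for Ccnd2 (adjusted p = 0.0015) and 0.75 for Ccng2 (adjusted p = 0.0443). None of the 43 members met this condition.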

How the results depend on the processing

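Over 24 counts of called members and their 420 alternatives, 350 counts stayed within 1.5 times the main count, and 85 of 222 calls of a member in a comparison held in every setting run. The cause of the changes below was not tested.

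Counts are given as replication and mitotic members called. With the beta-actin control as a covariate, BIO against DMSO gave 4 and 3 in aggregates and 10 mitotic in dispersed cells, BIO aggregates against fresh cells 3 and 0, BIO aggregates against dispersed cells with BIO 2 and 0, 48 h against 24 h in BIO 9 replication, and the DMSO day against BIO at 24 h 0 and 0. With the Gapdh ratio as a covariate the counts were 5 replication in BIO aggregates against fresh cells, 5 on removal, 5 in 48 h against 24 h, 2 and 0 in the DMSO day against BIO at 24 h, 0 replication in aggregates against dispersed cells in DMSO and 2 mitotic in BIO. A fit of only the arrays compared, with fewer residual degrees of freedom, gave 9 replication for BIO against DMSO in aggregates, 4 on removal, 7 in 48 h against 24 h, 2 and 0 in the DMSO day against BIO at 24 h, 0 replication in aggregates against dispersed cells in DMSO and 4 mitotic in BIO. Median centring gave 3 replication in DMSO aggregates against fresh cells (2 lower and 1 higher), 15 in the DMSO day, 4 and 3 in aggregates against dispersed cells in DMSO and 10 replication in BIO. The deposited scaling gave 4 replication in the DMSO day, 0 replication in aggregates against dispersed cells in DMSO and 5 mitotic in BIO. In aggregates against dispersed cells in DMSO, 2 replication members passed without dim genes, 2 with log2(value + 16) and 3 with a trended and robust prior, which gave 1 in the interaction. Without the 4 arrays farthest from their group's median in the beta-actin control, in the groups where that control spread most (replicate 1 of fresh cells, 3 of DMSO aggregates, 3 of BIO aggregates at 24 h and 1 of those kept in BIO for 48 h), an alternative chosen after seeing the data, 5 replication members passed in the DMSO day.

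With the mean of all probe sets of a gene the counts were 8 replication for BIO against DMSO in aggregates, 4 and 1 in dispersed cells with BIO against fresh cells, 2 and 1 in aggregates against dispersed cells in DMSO, and 5 and 4 in the DMSO day. The replication minus mitotic level was then 0.29 in fresh cells, 0.48 and 0.29 in dispersed cells with DMSO and with BIO, 0.52 in DMSO aggregates, -0.093 after removal and 0.93 after 48 h in BIO. The same setting reversed Cenpe in BIO against DMSO aggregates (-0.26), Bub1b in DMSO aggregates against fresh cells (0.26), and Mcm6 (0.21) and Bub1b (0.065) in dispersed DMSO cells against fresh cells. In BIO aggregates against fresh cells it reversed Tyms (-0.49), Aurka (-0.29), Ttk (-0.020), Cenpa (-0.51), Cenpe (-1.46), Top2a (-0.63) and Axin2 (-0.035), and in dispersed cells with BIO against fresh cells Ccne1 (0.27). It reversed Top2a (-0.55) in aggregates against dispersed cells in DMSO, and Tyms (-0.57), Cenpa (-0.45), Cenpe (-1.54), Nusap1 (-0.016) and Top2a (-0.64) in BIO. It also reversed Cenpe (0.089) in 48 h against 24 h and Cenpf (1.29) in the DMSO day, where the beta-actin covariate reversed Pola1 (0.19).

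With the replicate block, 2 mitotic members passed in dispersed cells with BIO against fresh cells and 7 in aggregates against dispersed cells in BIO. The other counts stayed within 1.5 times, and of the single genes 12 lost their call and 0 turned.

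Leaving out 1 array at a time, replication and mitotic counts were 5 to 9 and 22 to 22 on removal, 11 to 14 and 22 to 22 in 48 h against 24 h, 4 to 8 and 0 to 1 in the DMSO day, 12 to 15 and 19 to 20 for BIO against DMSO in aggregates, and 9 to 11 and 10 to 15 in dispersed cells. Against fresh cells they were 7 to 9 and 11 to 13 in BIO aggregates, 2 to 2 and 0 to 3 in dispersed cells with BIO, 5 to 6 and 5 to 7 in DMSO aggregates, and 11 to 13 and 11 to 12 in dispersed DMSO cells. Aggregates against dispersed cells had 5 to 6 and 3 to 14 in BIO and 0 to 2 and 0 to 0 in DMSO, and the interaction 0 to 0 for both. The level difference was 0.08 to 0.20 after removal, 1.11 to 1.29 after 48 h in BIO, 0.25 to 0.48 and 0.64 to 0.67 in BIO and DMSO aggregates, 0.50 to 0.54 and 0.67 to 0.70 in dispersed cells with BIO and DMSO, and 0.56 to 0.59 in fresh cells. Genes near background have only a bound.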
